A study of Homo sapiens with 3 samples.

Results

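The receptors described here are 8 surface receptors through which growth factors and cytokines act on blood cells, out of 213543 features in a count table of THP-1 cells. They are KIT (P10721), FLT3 (P36888), CSF1R (P07333), CSF2RA (P15509), CSF2RB (P32927), CSF3R (Q99062), IL3RA (P26951) and IL6R (P08887), each read from the row that carries its UniProt accession. The group was chosen by name around KIT, with the counts of these libraries known, so the differences of KIT with time are given as a description. THP-1 is a human acute monocytic leukaemia line that carries the MLL-AF9 fusion, and all libraries came from it. The groups were untreated control cells at 0 h and cells kept in 0.2 µM GSK-LSD1, an inhibitor of the histone demethylase LSD1 used to induce monocytic differentiation, for 8 h or 24 h. RNA-seq of total RNA after ribosomal RNA depletion gave 1 library per time point, with a depth of 1475938 counts in the control, 1310912 after 8 h and 1444011 after 24 h. Without replicates no difference could be set against a spread between cultures, no p-value is given, and every interval covers counting error only. No untreated library at 8 h or 24 h is among the samples. Exposure to GSK-LSD1 and time in culture therefore cannot be told apart in any comparison with 0 h. Fewer cells that express a gene and less RNA per cell cannot be told apart in such bulk libraries.

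KIT, FLT3 and CSF1R are receptor tyrosine kinases that bind stem cell factor, FLT3 ligand and macrophage colony-stimulating factor. CSF3R and the chains CSF2RA, IL3RA, CSF2RB and IL6R have no kinase of their own. The receptors they form signal through JAK kinases and STAT factors. CSF2RB is the chain that the receptors for GM-CSF and interleukin 3 share. KIT is known as a receptor of stem and progenitor cells and of mast cells, whereas CSF1R marks the monocyte and macrophage lineage and CSF3R the granulocyte lineage.

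Of the 8 receptors, 3 reached at least 10 counts in a library, the minimum for the 9609 features tested, and these were KIT, CSF2RB and IL6R. For FLT3 the counts were 0, 1 and 2 in order of time. CSF1R, CSF2RA, CSF3R and IL3RA were listed at 0 in each of the 3 libraries. A count of 3, the floor used for a row at 0 (a 1-sided 95% limit, lower than the 2-sided intervals of the plots), came to 1.95 CPM in the control library, 2.34 at 8 h and 2.11 at 24 h, where CPM stands for counts per 1000000 counts of the library, scaled between libraries by trimmed means (TMM). A row at 0 in this table was not read as absence of the transcript, because 53799 of its 73321 accession rows, or 73.4%, held no count in any library, among them JAK1 and MAPK3, which nearly every cell uses.

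The promoters of KIT, CSF3R and IL6R are shown first, because the KIT row and the summed transcript features of CSF3R were lower after GSK-LSD1 and IL6R was the receptor with the most counts. RefSeq promoters on GRCh38.p14, each running from 250 bases before a start site to 50 after it, were matched to 7 of the 8 genes, with 9 start sites. Each line gives, 5′ to 3′ on the strand of the gene, the upstream bases that lie in no exon of the GENCODE annotation. Capitals mark matches on either strand to the motifs searched.
KIT, chr4:54657707-54657888, + strand: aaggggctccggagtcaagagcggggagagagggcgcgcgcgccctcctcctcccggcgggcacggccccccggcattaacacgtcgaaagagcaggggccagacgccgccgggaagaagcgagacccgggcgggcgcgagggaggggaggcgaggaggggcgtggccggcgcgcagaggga
CSF3R, outer start site, chr1:36483315-36483564, - strand: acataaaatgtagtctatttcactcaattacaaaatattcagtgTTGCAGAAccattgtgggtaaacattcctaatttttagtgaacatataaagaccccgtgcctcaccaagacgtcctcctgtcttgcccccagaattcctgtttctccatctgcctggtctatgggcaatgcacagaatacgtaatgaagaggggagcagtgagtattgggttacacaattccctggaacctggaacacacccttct
IL6R, chr1:154405093-154405192, + strand: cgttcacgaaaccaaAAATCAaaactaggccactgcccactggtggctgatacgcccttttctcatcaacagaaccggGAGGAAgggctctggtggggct
The motifs were GAGGAA, a core of PU.1 sites, found in 27.9% of 35087 promoters of the same length, TTGCNNAA of C/EBP factors in 10.5%, TGTGGT of RUNX factors in 13.1%, AGATAA of GATA factors in 10.3%, and AAATCA, a core of GFI1 sites, in 13.2%. No overlap between matches of different motifs was present in the lines shown. None of these letters occurred in the 300 bases of KIT, of which 74.3% were G or C against a median of 58.7% over the promoters. CSF3R had a C/EBP match 206 bases before its outer start site and a RUNX match 15 bases after it, and a PU.1 core 111 bases before its inner start site. IL6R had a GFI1 core 235 bases and a PU.1 core 172 bases before its start, with another PU.1 core on the opposite strand 6 bases before it. The PU.1 core was present in 5 of the 9 promoters, at FLT3, CSF1R, CSF2RA, CSF3R and IL6R, the C/EBP letters in 2, the RUNX letters in 2, the GFI1 core in 1 and the GATA letters in 0. A match is a description of letters and not a site of binding.

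KIT had 136 counts in the control library, 38 after 8 h and 34 after 24 h of GSK-LSD1. Scaled for library size these were 88.5 CPM (exact 95% Poisson interval 74.3 to 104.7), 29.7 CPM (21.0 to 40.7) and 23.9 CPM (16.6 to 33.5). The control library was thus the high one, and its interval overlapped neither treated library, while those of the 8 h and 24 h libraries overlapped each other. The log2 ratio of the scaled counts at 8 h against 0 h was -1.58 (exact 95% interval -2.14 to -1.05, conditional on the sum of both counts), which is 2.98-fold lower. At 24 h against 0 h it was -1.89 (-2.47 to -1.34), or 3.70-fold lower. Both ratios share the control library and are not independent of each other. Between 8 h and 24 h the log2 ratio was -0.31 (-1.02 to 0.40), and a difference was not detectable at this depth. KIT lies at chr4:54657267-54740783 on the + strand of GRCh38, with 11 coding transcripts in GENCODE v44, and no other annotated gene overlaps it.

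**Figure D1:**
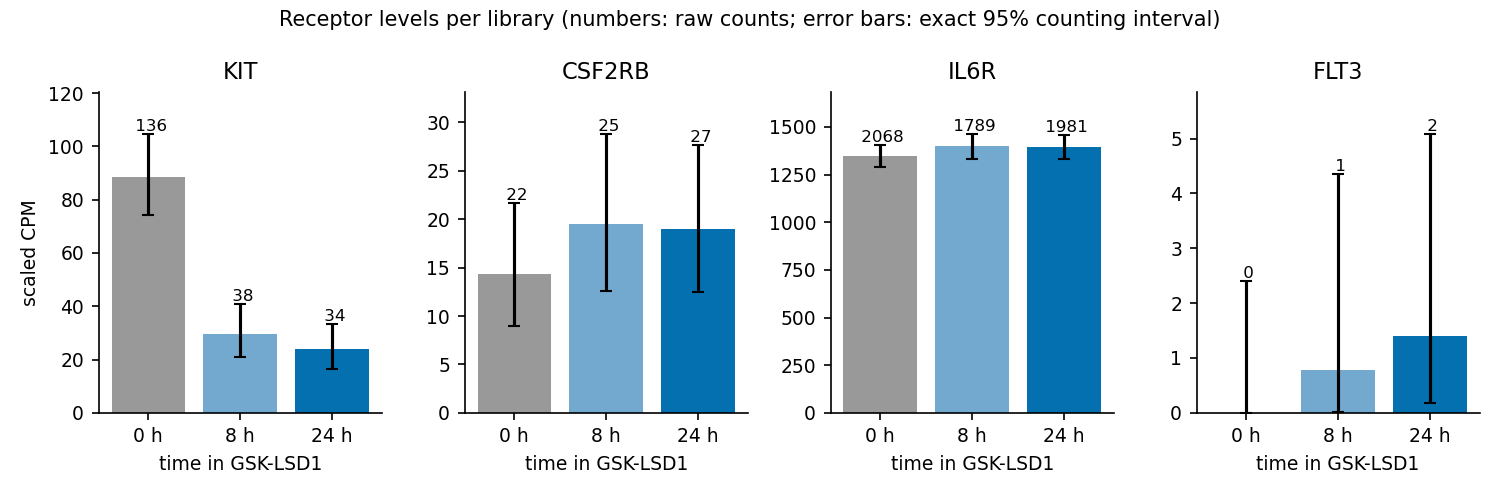
Scaled CPM (vertical axis, from 0) of KIT, CSF2RB, IL6R and FLT3 in the libraries at 0 h, 8 h and 24 h, with exact 95% Poisson intervals as error bars and raw counts above them. KIT stands at 88.5 CPM at 0 h and at 29.7 and 23.9 CPM later, and the intervals of each other receptor overlap across time points.

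Against the other features, KIT was among the lower ones at both times. Past a log2 fold change of 1, computed on log2 CPM with 2 added as prior count, 1 of the 3 receptors tested was lower at 8 h, KIT with -1.53, beside 6.02% of all 9609 features, and 0 were higher, beside 4.51%. At 24 h 1 receptor was lower, KIT with -1.83, beside 5.58% of features, and 0 were higher, beside 6.19%. From 8 h to 24 h 0 receptors were lower, beside 1.97%, and 0 were higher, beside 4.03%. Since KIT led to the choice of the group, nothing is read from these shares. A log2 fold change as low as that of KIT was present in 142 of the 9609 features at 8 h and in 61 at 24 h.

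Counting error alone was a looser measure. The exact interval of the ratio lay wholly below 0 for 1 receptor, KIT, at 8 h, beside 9.71% of features, and for 1 receptor, KIT again, at 24 h, beside 12.6%. It lay wholly above 0 for 0 receptors at 8 h and at 24 h, beside 11.7% and 13.0% of features. For 24 h against 8 h it excluded 0 for 0 receptors, beside 4.87% of features above and 5.58% below. The median log2 fold change of the 3 receptors tested was 0.054 at 8 h and 0.051 at 24 h, set by IL6R, against -0.011 and -0.010 over all features tested.

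**Figure D2:**
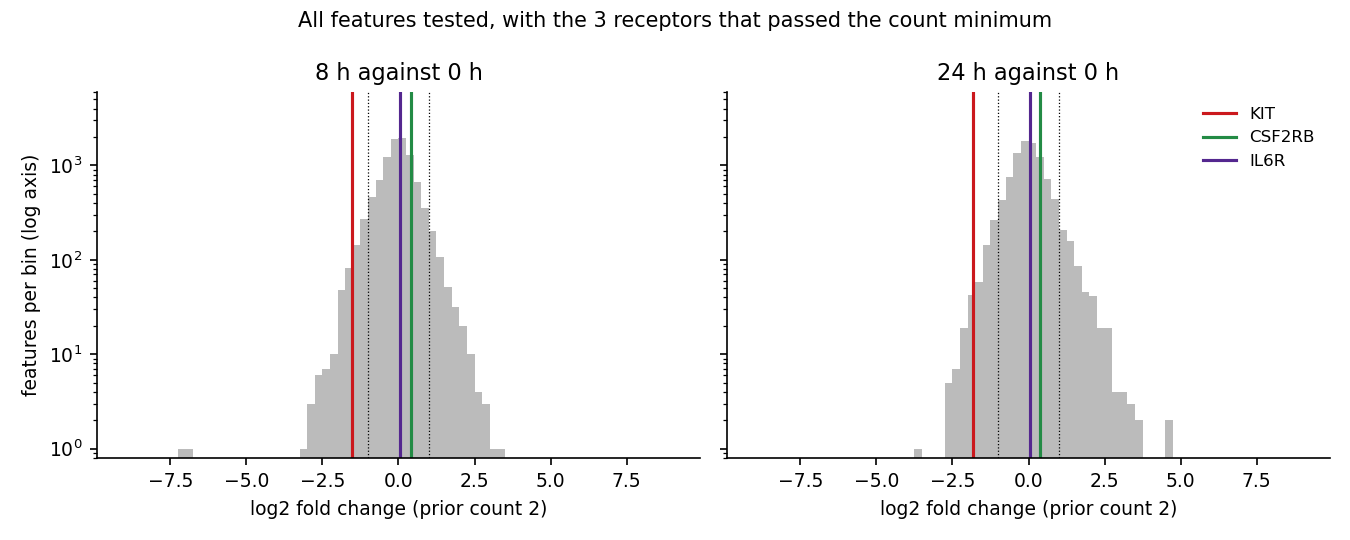
Distribution of the log2 fold change (horizontal axis, prior count 2) over the 9609 features tested, as features per bin on a log axis, at 8 h and at 24 h against 0 h, with vertical coloured lines at KIT, CSF2RB and IL6R and dotted lines at a log2 fold change of 1 in each direction. KIT lies in the left flank, at -1.53 and -1.83, and the other receptors lie near the middle.

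IL6R, the ligand-binding chain of the interleukin 6 receptor, was counted 2068, 1789 and 1981 times in order of time. Its scaled level was 1346 CPM (1289 to 1405) at 0 h, 1397 CPM (1333 to 1463) at 8 h and 1395 CPM (1334 to 1458) at 24 h, so the intervals of the libraries overlapped. The log2 ratio was 0.054 at 8 h against 0 h (-0.038 to 0.15) and 0.051 at 24 h against 0 h (-0.038 to 0.14), and it was below 0 when libraries were scaled by total counts (-0.038 and -0.030). At this depth the interval thus left no room for a change of IL6R as large as that of KIT. IL6R spans chr1:154405193-154469450 on the + strand. There 2 other annotated genes, IL6R-AS1 and PSMD8P1, overlap it, and whether counting used strand is not given in the sources used here.

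CSF2RB, the shared signalling chain, had 22 counts in the control library, 25 after 8 h and 27 after 24 h. These were 14.3 CPM (8.97 to 21.7), 19.5 CPM (12.6 to 28.8) and 19.0 CPM (12.5 to 27.7), all within each other's intervals. Its log2 ratio to 0 h was 0.45 (-0.44 to 1.34) at 8 h and 0.41 (-0.46 to 1.29) at 24 h, and no difference was detectable at this depth. CSF2RB lies at chr22:36913628-36940439 on the + strand. The rows of its partner chains CSF2RA and IL3RA, which bind GM-CSF and interleukin 3, were at 0.

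Levels of the receptors were compared with each other per length, as scaled CPM per kb of the canonical transcript, of 5764 bases for IL6R, 5147 for KIT and 4853 for CSF2RB. At 0 h the order was IL6R with 233.5 CPM per kb (223.6 to 243.8), KIT with 17.2 (14.4 to 20.3) and CSF2RB with 2.95 (1.85 to 4.47), with no overlap of the intervals. Per kb of coding sequence the same library gave 958.8 for IL6R, 30.2 for KIT and 5.32 for CSF2RB. The distances between receptors thus depend on the length used, which the intervals do not cover. At 8 h IL6R was at 242.4 CPM per kb, KIT at 5.77 (4.08 to 7.91) and CSF2RB at 4.02 (2.60 to 5.94). At 24 h IL6R was at 242.0 CPM per kb, KIT at 4.65 (3.22 to 6.50) and CSF2RB at 3.92 (2.58 to 5.70). The KIT row therefore stood above the CSF2RB row in the control library, and the intervals of these neighbours in the order overlapped after GSK-LSD1.

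**Figure D3:**
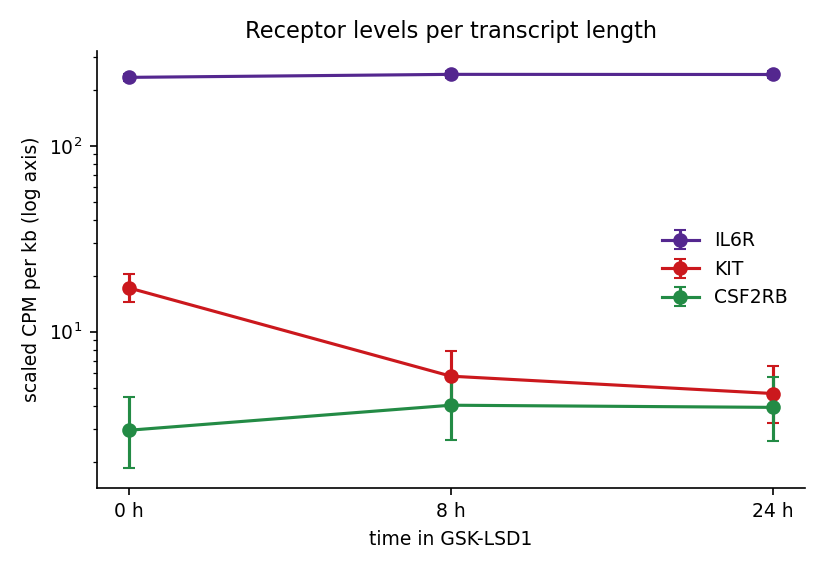
Scaled CPM per kb of canonical transcript (log axis) of IL6R, KIT and CSF2RB at 0 h, 8 h and 24 h, with exact 95% Poisson intervals. KIT comes down from 17.2 to 5.77 and 4.65 and meets the interval of CSF2RB, and IL6R stays between 233.5 and 242.4.

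The table also lists features by Ensembl transcript, and 31 of these belong to the 8 genes in GENCODE v44, which the choice of receptors did not use. A count was present in 7 of the 31, beside 31172 of all 140222 transcript features, and nothing is read from this number. For CSF3R, the receptor of granulocyte colony-stimulating factor, 3 of 8 transcript features held counts although its accession row was at 0, with a sum of 82 counts in the control library, 38 after 8 h and 34 after 24 h. The log2 ratio of this sum was -0.85 (-1.44 to -0.28) at 8 h and -1.16 (-1.78 to -0.56) at 24 h against the same control library. The sum was thus highest in the control library. The interval of its ratio lay wholly below 0 at 8 h, beside 9.71% of the features tested, and at 24 h, beside 12.6%. At 8 h the ratio did not reach a log2 fold change of 1.

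Among the CSF3R features, ENST00000480825.6 is annotated as a retained intron with 9 exons at chr1:36466044-36476327 on the - strand, and 3034 of its 6074 exon bases lie outside the exons of the coding transcripts of the gene. Its counts were 48 in the control library, 18 after 8 h and 17 after 24 h. Its log2 ratio was -1.15 (-2.02 to -0.34) at 8 h and -1.38 (-2.28 to -0.56) at 24 h. ENST00000489551.5, a retained intron at the 5′ end of the gene with 2297 of 2659 exon bases outside coding transcripts, had 20, 8 and 8 counts. Its ratios of -1.06 (-2.45 to 0.19) and -1.21 (-2.60 to 0.036) had intervals that included 0. The remaining one, ENST00000526980.5, a transcript without a defined coding sequence, had 14, 12 and 9 counts, with log2 ratios of 0.040 (-1.20 to 1.26) and -0.52 (-1.91 to 0.79). The CSF3R counts thus came mostly from retained-intron features, and they describe RNA of the gene and not the level of its spliced coding transcript. How reads shared by overlapping features were counted is not given in the sources used here.

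**Figure D4:**
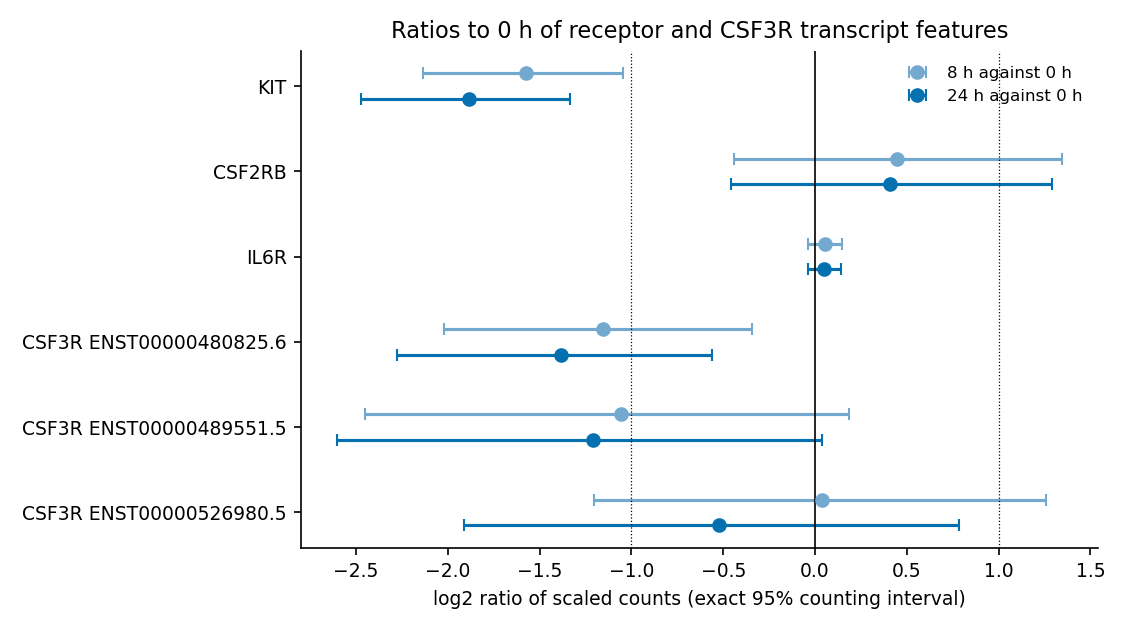
Log2 ratio of scaled counts to 0 h (horizontal axis) with exact 95% intervals, at 8 h and at 24 h, for KIT, CSF2RB, IL6R and the CSF3R transcript features that held counts. KIT and ENST00000480825.6 lie wholly below 0 at both times, and the intervals of the others include 0.

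CSF1R had 4 transcript features, with sums of 9, 3 and 3 counts. Of these, ENST00000509861.1 had 6, 2 and 2 counts and ENST00000502660.5 had 3, 1 and 1, both annotated as retained introns, and these numbers are too small to show a difference. The FLT3 transcript feature had 1, 0 and 0 counts. A retained intron of IL6R, ENST00000502679.1, had 2, 2 and 8 counts. The KIT transcript features, 2 retained introns, were at 0. Whether further accession rows belong to KIT or to the other receptors was not searched. CSF2RA had 14 transcript features at 0, 7 of them named as a further copy of the others. CSF2RA and IL3RA lie in the pseudoautosomal region, which is present on both X and Y, and all 88 transcript features that the table lists in such pairs, with their 88 copies, were at 0 in every library.

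The cell type named by the labels was checked with markers. Of 9 monocytic and myeloid markers, 7 were tested, and their list summed to 4483, 4698 and 5796 counts in order of time. The most counts were in neutrophil elastase (ELANE, P08246), with 3037, 3180 and 3000 counts. Past a log2 fold change of 1, 1 of the 7 was higher at 8 h, beside 4.51% of all features, and 3 were at 24 h, beside 6.19%. These were CD86, with 1, 19 and 37 counts, the integrin chain ITGAM, with 87, 120 and 339, and lysozyme (LYZ), with 655, 747 and 1773. CD86, the marker past the fold at 8 h, reached the minimum of 10 counts only in the treated libraries, where it was high. Its place among the markers tested was thus set by the difference itself, and nothing is read from these numbers of markers. CD33 was at 0, and CD14 had 0, 5 and 6 counts. The rows of 3 mast cell markers, TPSAB1, FCER1A and CPA3, were at 0, as were 3 erythroid and 3 B and T cell markers. Of 2 stem and progenitor markers, CD34 was at 0, and GATA2 had 47, 25 and 18 counts and was lower past the fold at 24 h, with a log2 fold change of -1.18, beside 5.58% of all features. Of 2 megakaryocytic markers, ITGA2B had 1 count at 24 h and PF4 had 0. The part of these marker changes in the lower KIT counts was not tested.

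The genes that act with the receptors were described from 7 lists of 106 genes, whose accessions were assigned from knowledge of UniProt. The table does not pair accessions with names, and these assignments, like those of the markers, were not checked against a reference table. Of these, 100 had a row, 31 of the rows were at 0 in every library, and 44 were tested. Past a log2 fold change of 1, 3 genes were higher and 2 lower at 8 h, beside 4.51% and 6.02% of all features tested. At 24 h 3 were higher and 1 lower, beside 6.19% and 5.58%. These numbers include SPRED1 and CCND2, which reached 10 counts only in the libraries where they were high, and nothing is read from them about the lists. The median log2 fold change over the 44 genes was 0.10 at 8 h and 0.0085 at 24 h, against -0.011 and -0.010 over all features.

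The ligands were nearly without counts, with 0 of 8 genes tested. The most counts were in CSF1, the ligand of CSF1R, with 3, 1 and 1 counts. Among 16 other receptor chains 4 were tested. The most counts were in the interferon receptor chain IFNAR1 (P17181), with 318, 381 and 416 counts and log2 ratios of 0.52 (0.30 to 0.74) at 8 h and 0.50 (0.29 to 0.72) at 24 h. IL4R (P24394), the interleukin 4 receptor chain, had 11 counts in the control, 22 after 8 h and 36 after 24 h, with log2 ratios of 1.26 (0.16 to 2.45) and 1.82 (0.82 to 2.95). It was the chain past the fold at both times, and the direction was opposite to that of KIT. PDGFRA, a receptor tyrosine kinase of the same family as KIT, had 1, 0 and 2 counts, and the related PDGFRB had 0, 2 and 1. Both are named outside the rule for named genes and after their values were seen.

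Of 10 JAK kinases and STAT factors, 3 were tested and 0 were past the fold. STAT3 (P40763), which acts below IL6R and CSF3R, had 220, 219 and 219 counts, with log2 ratios of 0.26 (-0.020 to 0.53) at 8 h and 0.11 (-0.17 to 0.38) at 24 h. Among 34 adaptors and kinases 19 were tested, and those past the fold were GAB2 at both times and AKT2 at 8 h. GAB2 (Q9UQC2), a docking protein that links KIT and cytokine receptors to PI3K and SHP2, had 234 counts in the control, 495 after 8 h and 797 after 24 h. Its log2 ratio was 1.34 (1.12 to 1.57) at 8 h, or 2.54-fold higher, and 1.88 (1.67 to 2.10) at 24 h, or 3.68-fold higher. Between 8 h and 24 h its log2 ratio was 0.54 (0.37 to 0.70). AKT2 (P31751), a kinase below PI3K, had 32, 11 and 15 counts, with log2 ratios of -1.28 (-2.41 to -0.25) and -0.98 (-1.97 to -0.053). The kinase SYK (P43405) had the most counts of the list, with 2117, 1895 and 2230 counts and log2 ratios of 0.10 (0.013 to 0.19) and 0.19 (0.10 to 0.27).

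**Figure D5:**
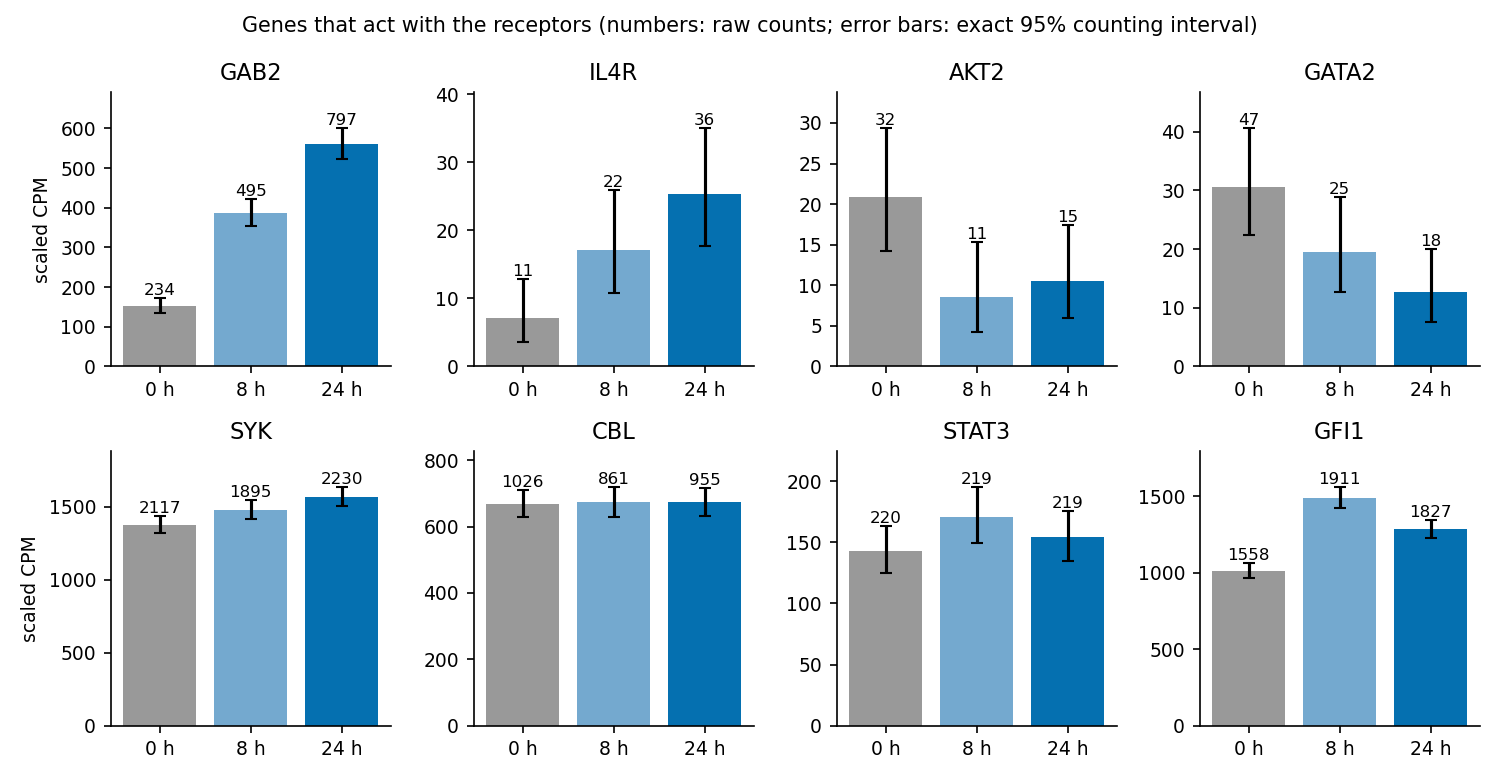
Scaled CPM (vertical axes, from 0) at 0 h, 8 h and 24 h of GAB2, IL4R, AKT2 and GATA2, which were past the fold, and of SYK, CBL, STAT3 and GFI1, which had the most counts of their lists summed over libraries, with exact 95% Poisson intervals and raw counts. GAB2 goes up at each step, from 234 to 495 and 797 counts, and GATA2 has 47, 25 and 18 counts, where the interval of the ratio excludes 0 for 24 h against 0 h alone.

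Among 21 negative regulators and sheddases 9 were tested. CBL (P22681), the ubiquitin ligase that marks activated KIT, FLT3 and CSF1R for degradation, had the most counts, with 1026, 861 and 955, and log2 ratios of 0.0099 (-0.12 to 0.14) at 8 h and 0.0098 (-0.12 to 0.14) at 24 h. SPRED1, an inhibitor of RAS signalling, was past the fold with 4, 12 and 15 counts, and is named after its values were seen because it lay under the 20 counts set for named genes. Of 9 targets of receptor signalling 3 were tested. MCL1 (Q07820), a survival factor, had the most counts, with 65, 90 and 82, and log2 ratios of 0.73 (0.26 to 1.22) and 0.45 (-0.039 to 0.94). The cyclin gene CCND2, also under 20 counts and named after its values were seen, had 19, 4 and 9 and was past the fold at 8 h.

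Among 8 transcription factors known at receptor genes 6 were tested. GATA2 (P23769), a regulator of KIT in progenitors and mast cells, had 47 counts in the control, 25 after 8 h and 18 after 24 h. Its log2 ratio was -0.65 (-1.41 to 0.082) at 8 h and -1.27 (-2.14 to -0.46) at 24 h. GATA2 was past the fold at 24 h alone, in the same direction as KIT. Whether GATA2 has a part in the lower KIT counts was not tested. GFI1 (Q99684), a repressor that recruits LSD1, had the most counts of the list summed over libraries, with 1558, 1911 and 1827 and log2 ratios of 0.56 (0.46 to 0.65) and 0.34 (0.24 to 0.44). In the control library CEBPA had more, with 1848, 1716 and 1717 counts in order of time, and is named after its values were seen.

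The features most like KIT in their pattern were found by the distance between log2 CPM values centred over the 3 libraries, among the 4218 features that reached 50 counts. The nearest was Q9UPY5, with 254, 78 and 64 counts, at a distance of 0.099. Next was Q8WVD3, with 134, 41 and 37 counts, at 0.11. The distance rests on 3 libraries, and the names of these accessions are not paired in the table.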

How the data were processed

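RNA-seq libraries were prepared from total RNA with ribosomal RNA depletion. According to the submitters' processing notes fastp, STAR and hg38 were used, and the authors deposited raw counts as whole numbers. How reads were assigned to features, with which annotation and strand setting, is not given in the sources used here. Features named by transcript were matched to GENCODE v44 (GRCh38, the same build) by identifier without version.

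Libraries were scaled by TMM in edgeR 4.0.16 (R 4.3.3), with factors of 1.041, 0.977 and 0.984 at 0 h, 8 h and 24 h, and log2 CPM used a prior count of 2. Features that reached 10 counts in 1 or more libraries were tested, and past the fold means a log2 fold change above 1 in either direction. Ratios were taken without a prior count, with exact Clopper-Pearson 95% intervals. Scripts were tested on simulated data. Alternatives were DESeq2 1.42.0 size factors, total counts with and without mitochondrially encoded features, other prior counts, count minimums and fold thresholds, the interval as call rule, and coding length.

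Named were the receptors, list genes that were past the fold against 0 h and reached 20 counts, the gene of each list with the most counts summed over libraries, and the features nearest to KIT, of which those with the smallest distances are printed. Members and lists were chosen with earlier results of these data known. Motifs in receptor proteins were not searched. IL6, NRAS, SOCS1, SOCS3, CCND1 and EGR1 were not analysed here.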

Additional observations from a re-analysis of the deposited data

How the results depend on the processing

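The numbers of receptors past the fold were the same in 52 of 54 alternatives over 6 counts. Both exceptions came with a log2 fold threshold of 2, under which 0 receptors were lower at 8 h and 0 at 24 h, since KIT lies between the thresholds. Of 27 log2 ratios under other scalings, 26 lay within their counting intervals and 0 of those called changed sign. The exception was IL6R at 8 h against 0 h, at -0.039 with total counts without mitochondrially encoded features. The lower limit of its counting interval was -0.038. A change of scaling shifts every log2 ratio of a comparison by the same amount. Here KIT went from -1.58 to -1.67 and CSF2RB from 0.45 to 0.35. Per kb of coding sequence in place of the transcript, KIT was at 30.2, 10.1 and 8.18 CPM at 0 h, 8 h and 24 h, CSF2RB at 5.32, 7.26 and 7.06, and IL6R at 958.8, 995.1 and 993.4, since coding sequences are shorter, and the order of the receptors was kept at each time.

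No paired analysis was possible because each time point has 1 library. Depth limits CSF2RB, whose intervals allow changes past the fold.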

Other observations

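Transcript features of IL4R, AKT2, GAB2 and GATA2, the list genes past the fold that reached 20 counts, were set beside their accession rows, a comparison chosen after seeing the data. The 5 transcript features of IL4R held 0, 7 and 6 counts in order of time. For AKT2, 16 features summed to 25, 13 and 19 counts, with log2 ratios of -0.68 (-1.77 to 0.34) at 8 h and -0.28 (-1.22 to 0.64) at 24 h, whose intervals included 0. GAB2 had 3 features with 0, 1 and 2 counts, and GATA2 had 1 feature with 1, 1 and 0.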
